A study of Mus musculus with 2 samples.

Results

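Regulatory T (Treg) cells can carry the transcript of amphiregulin (*Areg*) in large amounts while no transcript of the IL-33 receptor ST2 (*Il1rl1*) is counted in the same cell. The cells described here are such Treg cells from B16 and B16-IL33 mouse melanomas: 263 of the 2609 Treg cells (10.1%) in 1 pool of tumor T cells. A Treg cell was a barcode with at least 1 unique molecular identifier (UMI, 1 counted transcript molecule) of *Foxp3* and none of *Cd8a* or *Cd8b1*, among 9078 of 14035 barcodes with 200 to 2500 detected mouse genes and under 5% mitochondrial UMIs. Within these, the 263 cells had at least 3 *Areg* UMIs, 0 *Il1rl1* UMIs and fewer than 4 UMIs summed over *Isg15*, *Ifit1*, *Ifit3*, *Rsad2*, *Usp18* and *Mx1*, all induced by interferon. They were compared with 1537 Treg cells that had 0 UMIs of both *Areg* and *Il1rl1* (*Areg*-negative cells), and, as the population most like them, with 125 *Areg*-high Treg cells that carried *Il1rl1* under the same interferon limit (*Il1rl1*-positive *Areg*-high cells). A further 286 Treg cells had *Il1rl1* and no *Areg* (*Il1rl1*-positive *Areg*-negative cells).

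The study implanted C57BL/6 mice with B16 melanoma cells or with the B16-IL33 line, which was made to express IL-33, and took the tumors on day 9. T cells sorted by their TCR-β chain were labelled with hashtag antibodies by tumor type, pooled, and loaded for 5′ single-cell sequencing as gene expression, hashtag and TCR libraries. The mice were otherwise untreated, and the labels give no age. The pool is 1 sample, so cells of both tumor types were mixed in every group here, but not in matched shares. Few cells carried a hashtag. B16-IL33 tags were on 12 of 34 tagged cells among the 263. They were on 29 of 201 tagged *Areg*-negative cells and 4 of 7 tagged *Il1rl1*-positive *Areg*-high cells. The part of tumor type in the ratios between groups was not tested. Cells of 1 pool are not replicates. No test was therefore made: levels are counts of a gene summed over a group and scaled to a total of 1000000 UMIs (CPM), with 95% intervals that cover counting error only, not differences between mice. Of the gene expression barcodes, 11756 were also in the hashtag library and 6665 in the TCR library.

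Amphiregulin is a ligand of the epidermal growth factor (EGF) receptor, made as a membrane-bound precursor and released by proteases, and it promotes repair of epithelium and muscle. Treg cells of non-lymphoid tissue are a known source of it, and many of them carry ST2, through which the alarmin IL-33 reaches MyD88 and NF-κB and supports a program with GATA3 and KLRG1. Amphiregulin can also be induced in T cells without IL-33, by IL-18, T cell receptor signals or cyclic AMP.

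The cells were selected on their measured *Areg*, *Foxp3*, *Il1rl1*, CD8 and interferon-induced transcripts, so the levels of these are a description. The 263 cells held 3519 *Areg* UMIs among 885962 UMIs, 3972 CPM (3842 to 4105), with a median of 8 UMIs per cell, quartiles of 5 and 17 and a maximum of 93. The *Il1rl1*-positive *Areg*-high cells stood at 4928 CPM of *Areg*. *Foxp3*, the transcription factor that defines Treg cells, was at 728 CPM in the 263 cells, 709.6 CPM in the *Areg*-negative cells and 788 CPM in the *Il1rl1*-positive *Areg*-high cells. Median depth was close, at 2884, 2686 and 3116 UMIs per cell. The 263 cells were 8.18% of Treg cells with under 2000 UMIs, 11.9% of those with 2000 to under 3000, 9.65% of those with 3000 to under 4000 and 10.8% of those with 4000 or more, so they were not drawn from the deepest cells alone. *Areg* lies at chromosome 5, 91139599 to 91148432, and *Il1rl1* at chromosome 1, 40429570 to 40465415 (GRCm38, GENCODE vM21).

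**Figure D1:**
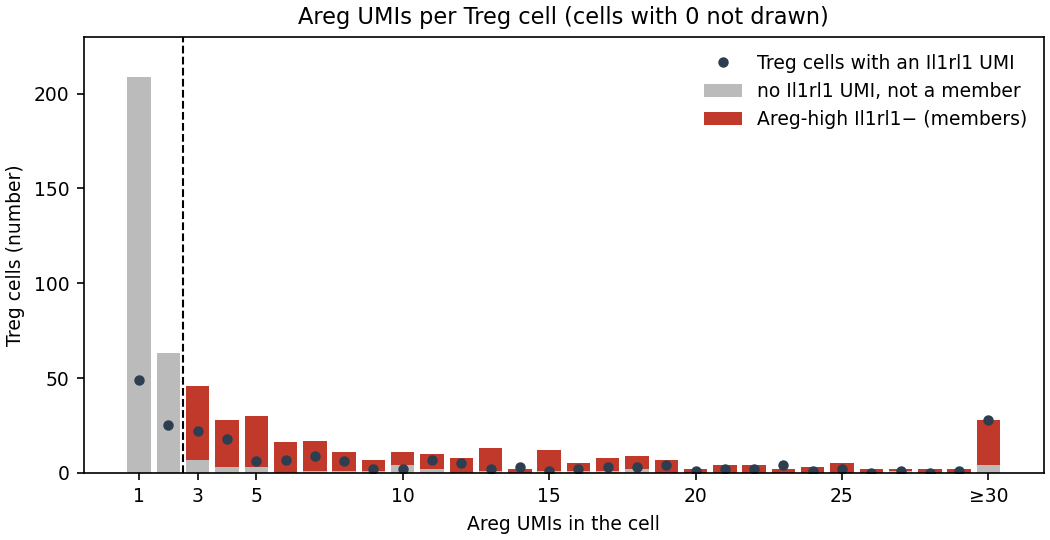
Number of Treg cells (vertical axis) at each count of *Areg* UMIs (horizontal axis), with the 263 cells in red, other Treg cells without *Il1rl1* in gray and Treg cells with *Il1rl1* as dots; the dashed line is the threshold of 3. Beyond the threshold the counts have a long tail, with 124 of the 263 cells at 10 or more UMIs and 51 at 20 or more.

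*Areg* at this level was less common in the other T cells of the pool, but not confined to Treg cells. At least 3 *Areg* UMIs were present in 696 of the 9078 filtered cells, 440 of them Treg cells (16.9% of Treg cells). The same count was reached by 24 CD8 T cells (1.84%) and 86 CD4 T cells without *Foxp3* (4.86%). A further 55 had both *Foxp3* and CD8 transcripts, and the rest had no UMI of *Foxp3*, *Cd8a*, *Cd8b1* or *Cd4*. CD8 T cells had 68.1 CPM of *Areg*, with a UMI in 7.19% of 1307 cells, and 4.01% once each cell was thinned to 1500 UMIs, which left out 137 of them. CD4 T cells without *Foxp3* had 228 CPM, with a UMI in 12.9% of 1769 cells, and 8.62% thinned, which kept 1447 of them. The 137 macrophage-like barcodes (no CD3 transcript and at least 5 UMIs of *Lyz2* or the C1q genes) had 9.99 CPM. All Treg cells together had a UMI in 30.1% of cells (24.7% thinned), at a median of 2780 UMIs per cell beside 3283 in the CD8 T cells.

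The rule removed cells at each step. Of 602 barcodes with *Foxp3* and at least 3 *Areg* UMIs, 495 passed the quality limits and 440 of these had no CD8 transcript. *Il1rl1* was present in 144 of the 440 and absent in 296, and the interferon limit removed 33 of the 296. Just inside the threshold, 39 cells had exactly 3 *Areg* UMIs, with 669.6 CPM of *Il2ra*, 358 of *Ccr8*, 373 of *Klrg1* and 373 of *Lag3*. Just outside it, 56 cells with 2 *Areg* UMIs under the same limits had 426, 252, 303 and 437 CPM of the same genes.

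A count of 0 does not show that a cell made no *Il1rl1*. Among the 125 *Il1rl1*-positive *Areg*-high cells, 62 had a single *Il1rl1* UMI, 32 had 2 and 31 had 3 or more. If those with at least 1500 UMIs (111 cells) were thinned to that depth, 64.3% would be expected to keep a UMI. Some of the 263 cells may thus have carried *Il1rl1* below detection, and how many was not tested. Among Treg cells with at least 3 *Areg* UMIs, *Il1rl1* was found in 35 of 100 cells with under 2000 UMIs, 33 of 118 with 2000 to under 3000, 32 of 87 with 3000 to under 4000 and 44 of 135 with 4000 or more. The level of *Il1rl1* over the same cells was 470.4, 187, 189 and 142 CPM, highest in the shallowest cells, so these shares do not show how often *Il1rl1* was missed. Summed over the group, the 263 cells had 0 *Il1rl1* UMIs by rule, beside 609 CPM in the *Il1rl1*-positive *Areg*-high cells.

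*Il1rl1* was found more often in Treg cells with *Areg* than in those without. Its share was 15.7% (10.7% thinned) in Treg cells with 0 *Areg* UMIs, 21.4% (13.4% thinned) at 1 or 2, 35.1% (24.4% thinned) at 3 or 4, 27.0% (14.9% thinned) at 5 to 9, 27.4% (19.5% thinned) at 10 to 19 and 42.9% (26.7% thinned) at 20 or more. The thinned share took in 1467, 292, 99, 98, 107 and 92 cells. The share was therefore not ordered by *Areg* above 3 UMIs, and even at 20 or more UMIs 56 of 98 Treg cells had no *Il1rl1* transcript.

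Against the *Areg*-negative cells, 4865 genes had at least 20 UMIs expected in the 263 cells at the rate pooled over both groups. Of these, 98 (2.01%) were at least 1.5-fold higher and 196 (4.03%) at least 1.5-fold lower, with a median ratio of 1.01. Leaving out the cell with the most UMIs of each gene in each group took the higher genes from 98 to 61. Against the *Il1rl1*-positive *Areg*-high cells, 4836 genes were counted, of which 456 (9.43%) were at least 1.5-fold higher and 362 (7.49%) at least 1.5-fold lower, with a median ratio of 1.001. The *Il1rl1*-positive *Areg*-high cells held 413952 UMIs and the *Areg*-negative cells 4678617, so counting error was larger against the *Il1rl1*-positive *Areg*-high cells.

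Several receptors were higher in the 263 cells than in *Areg*-negative Treg cells. *Il2ra*, the high-affinity IL-2 receptor chain CD25, was at 635 CPM in the 263 cells and 344 CPM in the *Areg*-negative cells, 1.85-fold (1.68 to 2.04) higher. It was at 649.9 CPM in the *Il1rl1*-positive *Areg*-negative cells and highest, at 826 CPM, where both transcripts were present. *Ccr8*, the chemokine receptor of tumor and skin Treg cells, was at 306 against 165 CPM, 1.85-fold (1.61 to 2.13) higher, and at 229 CPM in the *Il1rl1*-positive *Areg*-high cells. *Cxcr6*, a chemokine receptor of tissue-resident T cells, was 1.60-fold (1.33 to 1.92) higher, and *Il1r2*, the decoy receptor that binds IL-1 without signaling, was 1.74-fold (1.42 to 2.12) higher at 149 CPM. Of 11 counted chemokine receptors and ligands, *Ccr8* and *Cxcr6* were at least 1.5-fold higher and *Ccr4* lower, with a list median of 1.19. *Ccr4*, a skin homing receptor, was at 14.7 against 25.6 CPM, a ratio of 0.572 (0.296 to 1.02), short of 1.5-fold in 1 of 15 alternatives. *Cxcr3*, the receptor of interferon-induced chemokines, had a ratio of 0.762, less than 1.5-fold lower. Of 17 receptors of other cytokines that were counted, *Il2ra* and *Il1r2* alone were at least 1.5-fold higher and none was lower, with a list median of 1.04. *Il18rap*, a chain of the receptor for IL-18, was at 18.1 CPM beside 16.9 in the *Areg*-negative cells and 58.0 in the *Il1rl1*-positive *Areg*-high cells. *Il18r1*, the other chain, was at 51.9, 48.7 and 50.7 CPM.

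The difference in *Il2ra* and *Ccr8* was in the number of cells as well as in the sum. *Il2ra* was found in 64.3% (47.2% thinned) of the 263 cells and 46.0% (30.6% thinned) of *Areg*-negative cells, and *Ccr8* in 42.6% (28.6% thinned) and 28.3% (18.2% thinned). Thinning kept 234 and 1226 cells and left out 29 and 311. In CD8 T cells, a type with little of either, *Il2ra* was found in 13.4% (6.18% thinned) and *Ccr8* in 6.04% (2.97% thinned). Median depths were 2884 UMIs in the 263 cells and 3283 in the CD8 T cells.

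Genes of Treg identity were mostly kept. Of 13 counted, *Il2ra* and *Ikzf4* were at least 1.5-fold higher and *Nrp1* lower, and the list median was 1.16. *Ikzf4*, which encodes the *Foxp3* partner Eos, was at 85.8 against 50.9 CPM, 1.69-fold (1.28 to 2.19) higher. *Ikzf2*, for the related factor Helios of thymus-derived Treg cells, was at 1009 against 810.1 CPM, 1.25-fold (1.16 to 1.34) higher and so under 1.5. *Nrp1*, for the semaphorin receptor neuropilin-1, went the other way, at 19.2 against 41.3 CPM, a ratio of 0.465 (0.265 to 0.764). *Ctla4*, the inhibitory receptor for CD80 and CD86, stood at 1584 against 1078 CPM, 1.47-fold (1.38 to 1.56) higher. The costimulatory receptors *Tnfrsf4* (OX40), *Tnfrsf9* (4-1BB) and *Icos* were 1.33-, 1.27- and 1.33-fold higher, all short of 1.5.

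Of 16 counted genes of suppression and checkpoint, *Lag3* and *Itgb8* were at least 1.5-fold higher and *Prf1* lower. *Lag3*, an inhibitory receptor for MHC class II, was the clearest, at 615 against 373 CPM, 1.65-fold (1.5 to 1.82) higher, and found in 55.5% (41.8% thinned) of cells against 40.0% (29.95% thinned). *Itgb8*, the integrin chain that frees active TGF-β, was at 76.8 against 48.9 CPM, 1.57-fold (1.18 to 2.06) higher, and ended at 1.37-fold under the alternative that lowered it most. *Il10*, the suppressive cytokine, was 1.22-fold (0.998 to 1.49) higher than in *Areg*-negative cells but had a ratio of 0.899 without cells holding at least 2 UMIs of myeloid, dendritic, B cell or melanoma markers. *Tigit*, the inhibitory receptor for CD155, was 1.29-fold (1.19 to 1.41) higher. *Tgfb1* was near even at 1.11-fold (0.933 to 1.32). *Prf1*, the pore protein perforin, had a ratio of 0.597 (0.356 to 0.950), less than 1.5-fold lower in 3 of 15 alternatives, while the protease *Gzmb* was at 1423 against 1301 CPM, 1.09-fold (1.03 to 1.16) higher.

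Most genes linked to ST2-bearing tissue Treg cells had ratios above 1 (17 of 19 counted), beside 2493 of all 4865 counted genes. Heat shock genes (10 of 10) and cyclic AMP genes (12 of 13) did so as well, so a ratio above 1 was not particular to this list. Of the 19, *Ccr8*, *Cxcr6* and *Klrg1* were at least 1.5-fold higher than in *Areg*-negative cells, none was lower, and the median was 1.27. *Klrg1*, the inhibitory receptor for cadherins, was at 423 against 273 CPM, 1.55-fold (1.38 to 1.74) higher, nearly the level of the *Il1rl1*-positive *Areg*-high cells (444 CPM), and was found in 50.6% (36.9% thinned) against 33.3% (24.1% thinned) of *Areg*-negative cells. Its ratio was under 1.5 in 4 of 15 alternatives, with a lowest value of 1.20. *Gata3*, the transcription factor of type 2 and tissue Treg programs, was near even at 143 against 132 CPM, while both *Il1rl1*-positive groups were higher, at 266 CPM with *Areg* and 219 CPM without it. *Dgat2*, an enzyme of triglyceride synthesis, had too few UMIs to be counted among the 4865 and was at 51.9 CPM in the 263 cells, 15.6 in the *Areg*-negative cells, 128 in the *Il1rl1*-positive *Areg*-high cells and 116 in the *Il1rl1*-positive *Areg*-negative cells. The 263 cells thus lay between, 3.33-fold (2.25 to 4.88) above the *Areg*-negative cells and at a ratio of 0.406 (0.267 to 0.614) to the *Il1rl1*-positive *Areg*-high cells. *Sdc4*, the heparan sulfate proteoglycan syndecan-4, followed the same order at 214, 146, 316 and 249 CPM. *Batf*, an AP-1 factor needed by tissue Treg cells, stood at 275, 222, 435 and 371 CPM.

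**Figure D2:**
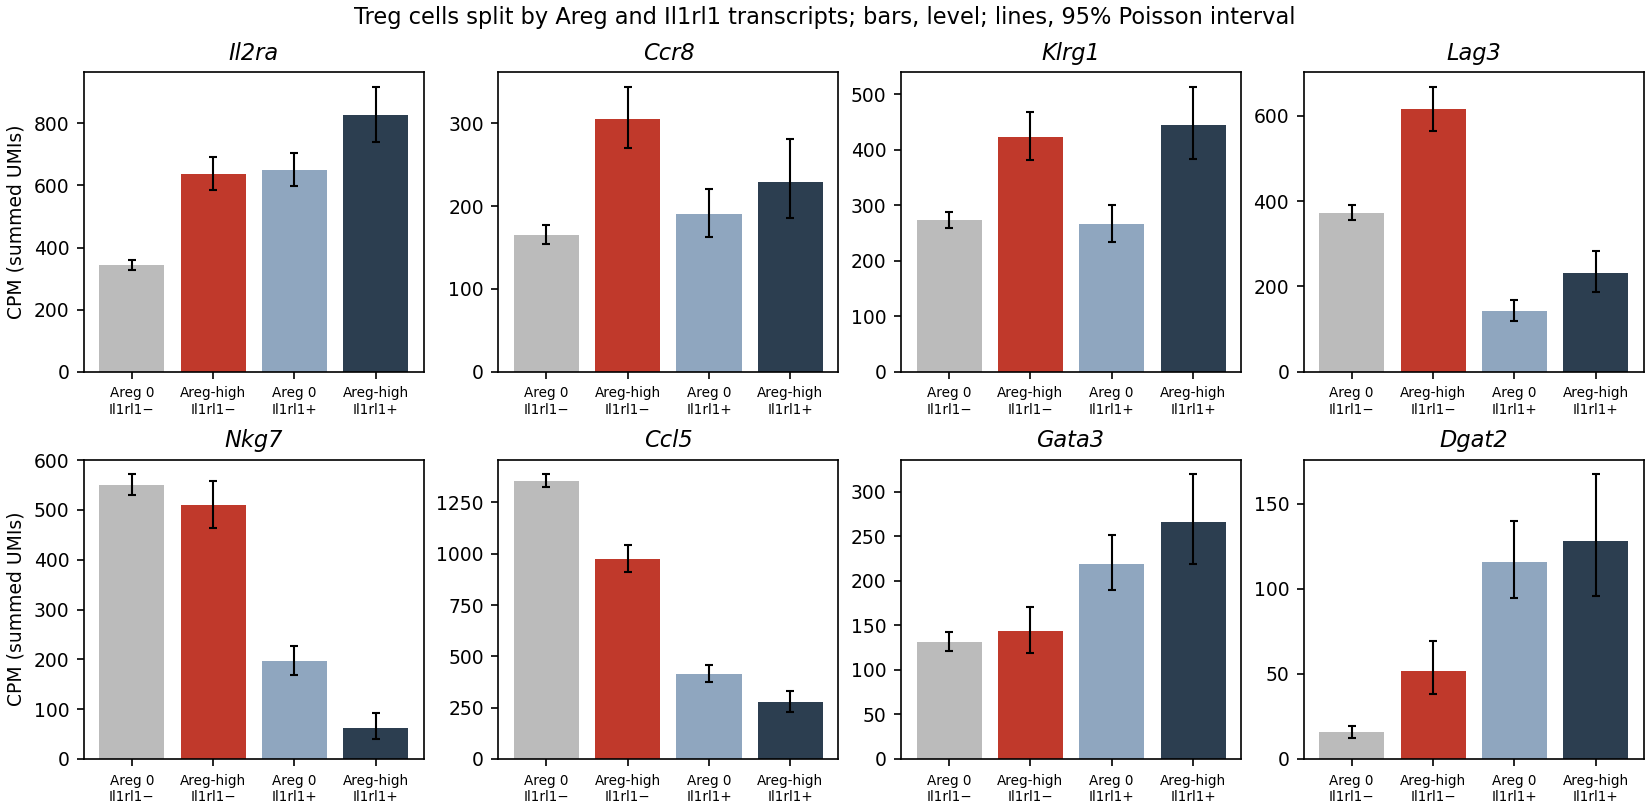
Level in CPM with 95% Poisson intervals of 8 genes in Treg cells split by *Areg* and *Il1rl1*. *Klrg1* and *Ccr8* were higher in both *Areg*-high groups (423 and 444 CPM of *Klrg1*), *Gata3* and *Dgat2* in both *Il1rl1*-positive groups (266 and 219 CPM of *Gata3*), and *Nkg7* in both groups without *Il1rl1* (509 and 551 CPM).

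Among genes of central memory and lymphoid homing, more were past 1.5-fold lower than higher, although the list summed higher. Of 11 counted, 5 were at least 1.5-fold lower, 5 were between, *Satb1* was higher, and the median was 0.845. Over all 4865 counted genes, 4.03% were lower and 2.01% higher. Summed, the 14 listed genes were at 1762 CPM (1676 to 1852), against 1634 (1598 to 1671) in the *Areg*-negative cells. *Klf2* was the most abundant, at 620 CPM in the 263 cells. *Tcf7*, for the stem-like factor TCF-1, was at 26.0 against 60.7 CPM, a ratio of 0.428 (0.267 to 0.655), and *Lef1*, its relative, at 29.3 against 67.3 CPM, a ratio of 0.436 (0.280 to 0.651). *Igfbp4*, a binding protein of insulin-like growth factors found in naive T cells, had 1 UMI in the 263 cells and 142 in the *Areg*-negative cells, a ratio of 0.0372 (0.000935 to 0.211). *Bcl2*, which blocks apoptosis, had a ratio of 0.546 (0.274 to 0.991), and *S1pr1*, the receptor for exit to lymph and blood, 0.607 (0.376 to 0.937), although *S1pr1* turned to 1.09-fold when both groups needed 2 *Foxp3* UMIs. *Satb1*, a chromatin organizer of T cell development, was at 389 against 229.8 CPM, 1.69-fold (1.5 to 1.92) higher, and higher still in the *Il1rl1*-positive *Areg*-high cells at 483 CPM. A UMI of *Tcf7* or *Ccr7* was found in 10.3% (6.41% thinned) of the 263 cells and 15.9% (11.3% thinned) of *Areg*-negative cells. *Itga4*, the integrin chain that binds VCAM-1, was also lower, at a ratio of 0.541 (0.346 to 0.811), while *Itgae*, the chain that binds E-cadherin, was 1.44-fold (1.20 to 1.71) higher.

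Genes that respond to T cell receptor signals and to cyclic AMP were counted because both can induce *Areg*. *Nr4a1*, an immediate early nuclear receptor on both lists, was at 316 against 204 CPM, 1.55-fold (1.35 to 1.77) higher, and under 1.5 in 5 of 15 alternatives. Among 22 counted immediate early and AP-1 genes and 13 counted cyclic AMP genes no other was 1.5-fold higher, and the list medians were 1.12 and 1.13. *Rgs2*, a brake on G protein signals, was 1.43-fold (1.25 to 1.63) higher and *Fosl2*, an AP-1 subunit, 1.49-fold (1.20 to 1.83). *Ier3* and *Atf3*, early stress genes, were lower, with ratios of 0.192 (0.0760 to 0.402) and 0.228 (0.0971 to 0.459), *Atf3* short of 1.5-fold in 1 of 15 alternatives, and 56.0% and 68.1% of their UMIs among *Areg*-negative cells were in 55 cells with macrophage transcripts. None of 18 counted NF-κB response genes was past 1.5-fold either way, with a median of 1.13, and *Nfkbia*, the inhibitor that NF-κB itself induces, was 1.27-fold (1.19 to 1.34) higher.

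Among growth factors and repair genes, the 263 cells held few EGF family ligands other than *Areg*. *Hbegf* had 11 UMIs and 12.4 CPM, *Tgfa* had 2 UMIs, and *Ereg* had 0, which allows up to 3 UMIs. *Egfr*, *Erbb2* and *Erbb4*, the receptors of the family, had 0 UMIs as well, and *Erbb3* had 9. *Adam17*, the protease that releases amphiregulin from the membrane, was at 74.5 against 51.9 CPM, 1.43-fold (1.08 to 1.89) higher, and at 33.8 CPM in the *Il1rl1*-positive *Areg*-high cells. *Penk*, the precursor of enkephalin peptides, was at 306 against 173 CPM, 1.76-fold (1.53 to 2.03) higher, but came from 32 cells, with 25.8% of its UMIs in 1 cell, and was 1.45-fold higher without the top cell of each group. *Tff1*, a secreted trefoil peptide of mucosal repair, had 45 UMIs in 18 cells, at 50.8 against 16.9 CPM, 3.01-fold (2.04 to 4.39) higher but under the count minimum. *Pdgfb*, a growth factor for mesenchymal cells, was also under it at 1.97-fold (1.23 to 3.08).

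The 15 highest ratios against the *Areg*-negative cells also held genes outside these roles. *Tmem163*, a zinc transporter, led at 49.7 against 18.0 CPM, 2.77-fold (1.88 to 4.03) higher, and was low in both *Il1rl1*-positive groups, at 12.1 and 9.72 CPM. *Tmem158*, a membrane protein induced by Ras, was 2.16-fold (1.5 to 3.06) higher, *Zdhhc21*, which attaches palmitate to proteins, 2.07-fold (1.43 to 2.94), and *Ern1*, the endoplasmic reticulum stress sensor IRE1α, 2.06-fold (1.42 to 2.94). *Prpf4* of the spliceosome was 1.91-fold (1.25 to 2.86) higher, *Rgcc*, a regulator of the cell cycle, 1.86-fold (1.5 to 2.30), *Igf2r*, a receptor that takes up IGF2, 1.78-fold (1.32 to 2.37), and *Slc7a6os* 1.76-fold (1.16 to 2.62). *Il17a*, an inflammatory cytokine, came from 9 of the 263 cells, at 39.5 against 21.2 CPM. *Igkc*, an antibody light chain that T cells do not make, was at 105 against 59.2 CPM and in 36 cells. *Gzma*, a granzyme, was 1.79-fold (1.25 to 2.51) higher only through 1 cell that held 65.2% of its UMIs, and had a ratio of 0.790 without the top cell of each group.

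**Figure D3:**
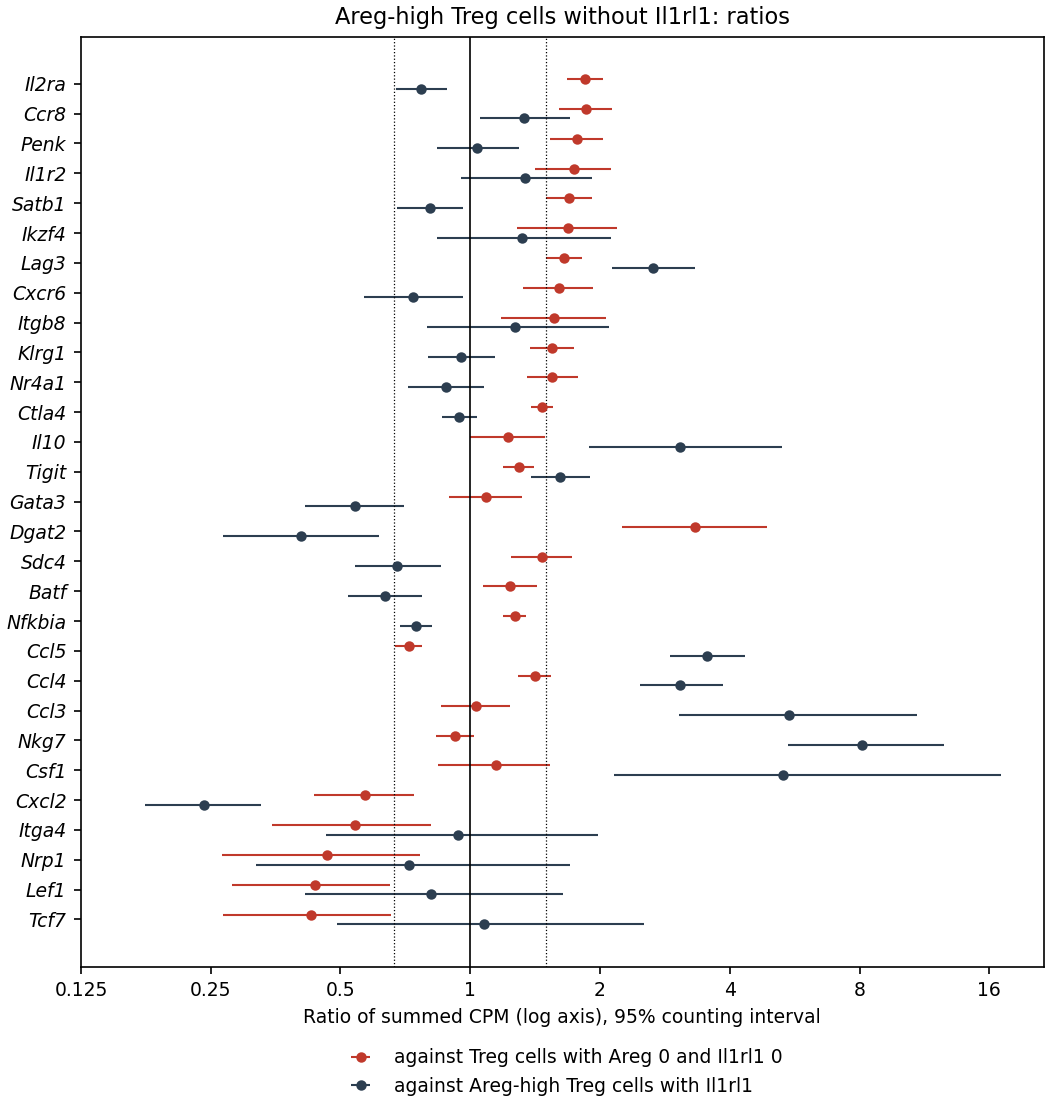
Ratio of the level in the 263 cells to that in *Areg*-negative cells (red) and in *Il1rl1*-positive *Areg*-high cells (blue) for genes of the text, with 95% counting intervals on a log axis; dotted lines are 1.5-fold. *Lag3* was higher against both (1.65- and 2.65-fold), and *Nkg7* against the *Il1rl1*-positive cells alone (0.924 and 8.10).

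Against the *Il1rl1*-positive *Areg*-high cells, cytotoxic genes had the highest median ratio of the lists with counted genes, 3.54 over 5 genes, of which 4 were at least 1.5-fold higher. *Gzmb*, the most abundant of the list, was not, at 1423 against 1619 CPM, a ratio of 0.879 (0.8001 to 0.967). *Gzma*, among the 4, had 65.2% of its UMIs in the 263 cells in 1 cell. The median was the ratio of *Ccl5*, a chemokine. Summed, the 12 listed genes were at 3094 CPM (2979 to 3212) against 2024 (1890 to 2166). The next medians were 2.04 over 2 counted effector cytokines and 1.94 over 4 counted myeloid markers, of which *Lyz2* turned from 1.69 to 0.133 without the top cell of each group. *Nkg7*, a granule protein of killer cells, was at 509 CPM in the 263 cells and 62.8 CPM in the *Il1rl1*-positive *Areg*-high cells, 8.10-fold (5.46 to 12.5) higher. The *Areg*-negative cells held as much, 551 CPM, and the *Il1rl1*-positive *Areg*-negative cells 196 CPM, so *Nkg7* was lower in both groups with *Il1rl1* and lowest where both transcripts were present. A *Nkg7* UMI was found in 38.0% (26.0% thinned) of the 263 cells, 40.2% (31.8% thinned) of *Areg*-negative cells, 14.4% (7.82% thinned) of *Il1rl1*-positive *Areg*-high cells and 81.3% (75.3% thinned) of CD8 T cells, where it is a lineage gene. Thinning left out 14 of the 125 *Il1rl1*-positive *Areg*-high cells and 137 of the 1307 CD8 T cells. The chemokines *Ccl3*, *Ccl4* and *Ccl5* were 5.49-fold (3.05 to 10.9), 3.07-fold (2.47 to 3.86) and 3.54-fold (2.91 to 4.34) higher than in the *Il1rl1*-positive *Areg*-high cells, with *Ccl5* at 975 against 275 CPM. Against the *Areg*-negative cells *Ccl5* had a ratio of 0.719 (0.669 to 0.772), and *Ccl4* was 1.41-fold (1.29 to 1.54) higher. The *Ccl4* ratio to the *Il1rl1*-positive *Areg*-high cells ran from 2.13 to 8.73 over 15 alternatives, 7 of them outside its interval, and 52.6% of its 95 UMIs in those cells were in 1 cell. *Ccl3* had 41.7% of its 12 UMIs there in 1 cell. Of 12 counted chemokine receptors and ligands, 5 were at least 1.5-fold higher and 2 lower, with a median of 1.34; *Ccl5* was counted in this list and among the cytotoxic genes.

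In other lists a few genes were higher than in the *Il1rl1*-positive *Areg*-high cells. Of 15 counted suppression and checkpoint genes, *Il10*, *Lag3* and *Tigit* were at least 1.5-fold higher and *Cd274* lower (short of 1.5-fold in 5 of 15 alternatives), with a median of 1.07, and of 8 counted growth factors and repair genes, *Csf1* and *Anxa2* were higher and none lower, with a median of 1.06. *Ctla4* had a ratio of 0.943 (0.861 to 1.03). *Lag3* was at 232 CPM in the *Il1rl1*-positive *Areg*-high cells, so that the 263 cells were 2.65-fold (2.13 to 3.33) higher. *Il10* was 3.07-fold (1.89 to 5.28) higher, *Tigit* 1.62-fold (1.38 to 1.90), *Ifng*, the cytokine interferon-γ, 3.36-fold (1.32 to 10.98) on 36 UMIs, and *Cd27*, a costimulatory receptor, 1.80-fold (1.42 to 2.30). *Csf1*, the growth factor of macrophages, was 5.33-fold (2.15 to 17.0) higher at 64.3 against 12.1 CPM, on 5 UMIs in the latter and with a range of 3.49 to 19.9 over 15 alternatives. Of 19 counted hypoxia and glycolysis genes, *Bnip3*, of mitochondrial turnover, was 1.80-fold (1.28 to 2.59) higher and *Egln3* and *Ero1l* were at least 1.5-fold lower, at 0.627 and 0.666 (short of it in 8 and 4 of 15 alternatives), with a median of 1.05. Higher too was *Cxcr3*, the receptor of interferon-induced chemokines, at 1.54-fold (1.04 to 2.33); *Tigit* and *Cxcr3* were under 1.5-fold in 2 and 5 of 15 alternatives. *Prelid2*, *Scnm1*, *Angptl2*, *Klf4* and *Isg20l2* completed the 8 highest ratios on 2 or 3 UMIs in the *Il1rl1*-positive *Areg*-high cells, at 45.1, 37.2, 35.0, 31.6 and 31.6 CPM in the 263 cells.

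Of 20 counted genes linked to ST2-bearing tissue Treg cells, *Gata3*, *Dgat2* and *Batf* were at least 1.5-fold lower in the 263 cells than in the *Il1rl1*-positive *Areg*-high cells and *Il10* was higher, with a median of 0.801. *Gata3* had a ratio of 0.539 (0.415 to 0.703), *Nfkb1*, an NF-κB subunit, 0.576 (0.432 to 0.770), *Batf* 0.633 (0.520 to 0.772), *Nfkbia* 0.750 (0.688 to 0.817) and *Il18rap* 0.311 (0.155 to 0.611), with *Batf* less than 1.5-fold lower in 5 of 15 alternatives. Of the 18 counted NF-κB response genes, 3 were at least 1.5-fold lower and 2 higher, with a median of 0.780. *Ccr3*, the eotaxin receptor, had a ratio of 0.300 (0.174 to 0.508), and *Ccr4*, a skin homing receptor, 0.320 (0.145 to 0.682). *Il13*, a type 2 cytokine, had 1 UMI in the 263 cells and 13 in the *Il1rl1*-positive *Areg*-high cells, a ratio of 0.0359 (0.000846 to 0.239). *Cxcl2*, a neutrophil chemokine, was at 73.4 against 304 CPM, a ratio of 0.241 (0.176 to 0.328), from 15 of the 263 cells with 35.4% of UMIs in 1 of them. *Cxcl10*, an interferon-induced chemokine, had a ratio of 0.296 (0.157 to 0.543) and *Mt2*, a metallothionein, 0.354 (0.202 to 0.614). *Tmtc2*, *Gatsl3*, *Pdzk1ip1*, *Sh3bp4* and *Gnl3* completed the 8 lowest, at 10.2, 13.5, 26.0, 12.4 and 13.5 CPM in the 263 cells against 60.4, 62.8, 106, 45.9 and 48.3 CPM.

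The 263 cells were not uniform. Split by *Areg* into 3 to 4, 5 to 9, 10 to 19 and 20 or more UMIs (64, 75, 73 and 51 cells), *Lag3* was at 431 (345 to 531), 614 (519.5 to 720.3), 621 (526 to 729) and 798 (678 to 932) CPM, with the middle levels alike within counting error. The split uses *Areg*, which the rule used, so these levels are a description. *Satb1* was at 297, 299, 505 and 454 CPM, and *Il2ra* at 609, 471, 609 and 899 CPM, highest in the cells with the most *Areg*. *Klrg1* went otherwise, with 386, 467, 501 and 313 CPM, and *Gata3* stayed between 106 and 164 CPM. *Foxp3* was at 634, 818, 803 and 621 CPM.

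A UMI of *Nkg7* was present in 100 of the 263 cells and absent in 163, at median depths of 3317 and 2695 UMIs. Cells with *Nkg7* had 1127 CPM of *Ccl4* against 379 without it, and 695 against 553 CPM of *Lag3*. Cells without *Nkg7* had more *Satb1* (479 against 274 CPM), *Sdc4* (260.4 against 155 CPM), *Batf* (317 against 222 CPM) and *Dgat2* (70.1 against 28.4 CPM). Within the 263 cells the intervals overlapped for *Lag3*, *Batf* and *Dgat2*, and not for *Ccl4*, *Satb1* and *Sdc4*. Among *Areg*-negative cells these genes stood in the same order, with *Ccl4* at 634 CPM with *Nkg7* and 379 without, *Lag3* at 487 and 269.9, *Satb1* at 181 and 274, *Sdc4* at 123 and 167, *Batf* at 201 and 241, and *Dgat2* at 6.33 and 23.9 CPM. Among the *Il1rl1*-positive *Areg*-high cells, where only 18 of 125 had a UMI of *Nkg7*, *Ccl4* was at 29.5 CPM with *Nkg7*, on 2 UMIs, and 269 without, opposite in order. The intervals overlapped there for *Sdc4* (487 and 283 CPM), *Satb1* (531 and 474), *Dgat2* (162 and 121), *Lag3* (325 and 214) and *Batf* (354 and 451). *Areg* itself was, in the 263 cells, at 3668 CPM with *Nkg7* and 4207 CPM without. *Nkg7* and *Klrg1* were found together in 57 cells, *Nkg7* alone in 43, *Klrg1* alone in 76 and neither in 87. *Nkg7* and *Dgat2* were found together in 7 cells, with *Dgat2* alone in 19. The part of depth in these counts was not tested.

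Proliferation and metabolism were near even with the *Areg*-negative cells. None of 10 counted cell cycle genes was past 1.5-fold against the *Areg*-negative cells (median 1.10), and *Mki67* or *Top2a*, both made by dividing cells, was found in 21.3% (12.9% thinned) of the 263 cells and 18.4% (10.7% thinned) of *Areg*-negative cells. Against the *Il1rl1*-positive *Areg*-high cells, *Birc5* and *Mcm3* of 9 counted cell cycle genes were at least 1.5-fold higher and none lower (median 1.36), while *Mki67* or *Top2a* was found in 28% (15.4% thinned) of those cells. None of 19 hypoxia and glycolysis genes was past 1.5-fold (median 1.01), nor any of 10 heat shock genes (median 1.23), again against the *Areg*-negative cells. Of 9 counted interferon-induced genes outside the rule, *Ifi203* was lower at a ratio of 0.664 (0.546 to 0.802) and none higher, and *Ifi203* was less than 1.5-fold lower in 6 of 15 alternatives, in a contrast where 156 *Areg*-negative cells were at or over the interferon limit that the 263 cells had to meet.

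Most macrophage markers were lower in the 263 cells than in the *Areg*-negative cells. The 10 myeloid markers summed to 459 CPM in the 263 cells, 922 in the *Areg*-negative cells and 353 in the *Il1rl1*-positive *Areg*-high cells, with 6 of 7 counted genes at least 1.5-fold lower against the *Areg*-negative cells. None of the 10 was at 0 in the 263 cells, and *Cst3*, a protease inhibitor, was the most abundant at 301 CPM, found in 57.0% (36.0% thinned) of the 263 cells, 46.5% (30.6% thinned) of *Areg*-negative cells and 36.7% (18.9% thinned) of CD8 T cells. The *Cst3* ratio was 0.780 (0.683 to 0.887) with all cells and 1.11 (0.971 to 1.28) without the marked cells described next. *Lyz2*, the lysozyme of myeloid cells, had 29 UMIs in the 263 cells, of which 93.1% were in 1 cell. At least 2 UMIs of *Lyz2*, *Cd68*, *C1qa*, *C1qb*, *C1qc*, *Csf1r* or *Apoe* were present in 4 of the 263 cells (1.52%) and 55 of the 1537 *Areg*-negative cells (3.58%), and these 55 held 5.23% of that group's UMIs. They held at least 50% of the UMIs of 13 of the 15 genes with the lowest ratios. *Ccl2* and *Ccl12*, chemokines for monocytes, had 0 UMIs in the 263 cells against 397 and 137, at least 25.1- and 8.65-fold lower against a floor of 3 counts, with 85.1% and 88.3% of those UMIs in the 55 cells. *Spp1*, the matrix protein osteopontin, had a ratio of 0.0746 (0.0272 to 0.164) with all cells and 1.15 (0.340 to 3.11) without the marked cells of both groups, and *Lgals3*, galectin-3, 0.496 (0.419 to 0.585) and 1.18. Of the 6 lower myeloid markers, *Fcer1g* and *Tyrobp*, signaling adaptors of myeloid and innate-like lymphoid cells, turned from 0.345 and 0.509 to 1.72-fold (1.17 to 2.47) and 2.61-fold (1.65 to 4.06) higher without the marked cells, on 40 and 32 UMIs. The others of those 13 genes were *Ccl6*, *Ccl7*, *Ccl8*, *C1qb*, *C1qc*, *Cd14*, *Thbs1*, *Wfdc17*, *Lilr4b* and *Ier3*, with 53.6% to 99.4% of UMIs in the 55 cells. *Igfbp4* and *Hspb1*, a small heat shock protein with 3 UMIs in 1 of the 263 cells, completed the 15, with 3.52% and 2.42%. The lower levels of *Tcf7*, *Lef1*, *Nrp1* and *Itga4* did not depend on the marked cells, with ratios of 0.428, 0.428, 0.460 and 0.539 without them.

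Listed markers of the other cell types were low in the 263 cells, with no list above 16.9 CPM in sum. All 5 dendritic markers were at 0 (*Flt3*, *Xcr1*, *Cd209a*, *Itgax* and *Ccl22*), as were 5 of 6 mast cell and basophil markers, 4 of 5 fibroblast markers and 2 of 3 γδ T cell markers. The 5 B cell markers summed to 12.4, 15.6 and 31.4 CPM in the 263 cells, the *Areg*-negative cells and the *Il1rl1*-positive *Areg*-high cells, led in the 263 cells by *Cd79b*, with 3 at 0. *Igkc*, a B-lineage transcript outside that list, was at 105, 59.2 and 143 CPM in the same groups, and its source was not tested. In the same order, the 4 markers of group 2 innate lymphoid cells summed to 4.51, 4.70 and 31.4 CPM, led by *Calca*, with 2 at 0, and the 4 markers of natural killer cells to 5.64, 5.98 and 0 CPM, led by *Klrb1c*, with 1 at 0. The 5 melanoma markers summed to 16.9, 13.9 and 4.83 CPM, led by *Dct*, with 1 at 0, and the 4 neutrophil markers to 3.39, 16.7 and 2.42 CPM, led by *Csf3r*, with 2 at 0. The 5 T cell genes, by contrast, summed to 4162 CPM beside 4109.5 in the *Areg*-negative cells, so the cells carried T cell and Treg transcripts as their name says.

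Few of the cells shared a T cell receptor clonotype. A clonotype was called for 180 of the 263 cells (68.4%), in 177 clones, and 14 of the 263 had at least 2 productive β chains, as doublets can. Of the 180, 13 (7.22%, 3.90 to 12.0) shared it with another Treg cell, beside 6.48% (5.05 to 8.18) of *Areg*-negative cells and 3.85% (0.8003 to 10.8) of *Il1rl1*-positive *Areg*-high cells. The 13 cells fell in 10 clones, none of more than 2 Treg cells. In 3 of these clones both cells were among the 263, in 6 the partner was an *Areg*-negative cell, in 1 it had 1 or 2 *Areg* UMIs, and in none did the partner carry *Il1rl1*. Some of these clones had only an α chain assembled, both within the 263 and among those shared with *Areg*-negative cells. Their sharing thus rests on 1 type of chain. Joined by the β chain alone, 23 of 148 cells (15.5%, 10.1 to 22.4) had a partner, 11 of them an *Areg*-negative cell and 7 a Treg cell with *Il1rl1*, beside 11.01% (8.998 to 13.3) of *Areg*-negative cells and 4.92% (1.03 to 13.7) of *Il1rl1*-positive *Areg*-high cells with a partner. In the only clone of 2 such cells with both chains assembled, the cells had 4 and 25 *Areg* UMIs. The coding sequences of its CDR3 loops, which contact antigen, are shown because they define the clone (TRAV6-2 with TRAJ31, and TRBV5 with TRBJ2-1).
CDR3 alpha: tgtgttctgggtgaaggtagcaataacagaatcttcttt
CDR3 beta: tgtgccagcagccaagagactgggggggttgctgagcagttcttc

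Hashtags placed few cells. With all tag UMIs from 1 tumor type required, 34 of the 263 cells (12.9%) were tagged, 31 of them on a single UMI, and 1 cell had tags of both. How many tag UMIs were stray was not measured, so a single UMI does not establish the tumor of a cell. Of the 34, 22 carried B16 tags and 12 B16-IL33 tags (35.3% B16-IL33, 19.8 to 53.5). B16-IL33 tags were on 29 of 201 tagged *Areg*-negative cells (14.4%, 9.88 to 20.1) and 55 of 300 tagged Treg cells (18.3%, 14.1 to 23.2). Only 7 of the 125 *Il1rl1*-positive *Areg*-high cells were tagged, 3 with B16 and 4 with B16-IL33 tags. Among 39 tagged Treg cells with 1 or 2 *Areg* UMIs and no *Il1rl1*, 1 had a B16-IL33 tag (2.56%, 0.0649 to 13.5). Put the other way, the cells were 22 of 245 B16-tagged Treg cells (8.98%, 5.71 to 13.3) and 12 of 55 B16-IL33-tagged Treg cells (21.8%, 11.8 to 35.0). The intervals overlap, and the difference was not tested. The 2309 Treg cells not tagged by this rule had 131 CPM of *Il1rl1* and 878 of *Areg*. B16-tagged Treg cells had 18.1 and 332 CPM, and B16-IL33-tagged Treg cells 166 and 1414 CPM. Tagged cells may thus not represent all Treg cells of the pool. Each tumor type had 2 tags. The cells made up 7 of 85 and 15 of 165 Treg cells with the B16 tags, and 5 of 18 and 7 of 37 with the B16-IL33 tags. These are 8.24% (3.38 to 16.2), 9.09% (5.18 to 14.6), 27.8% (9.69 to 53.5) and 18.9% (7.96 to 35.2), with overlapping intervals. The tag oligonucleotides are shown because they alone assign a cell to its tumor.
B16_1: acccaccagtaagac
B16_2: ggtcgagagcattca
B16IL33_1: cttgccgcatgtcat
B16IL33_2: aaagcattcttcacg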

How the data were processed

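Gene expression values were UMI counts per gene and barcode, hashtag values counts per tag and TCR values counts per contig, all raw as the authors deposited them. The matrix header names Cell Ranger 3.1.0 and the submitters' processing notes 6.1.1; human genes of the combined reference were set aside. Cells, thresholds and gene lists were chosen with earlier results of these data known. Python 3.11.15, NumPy 2.4.6, SciPy 1.17.1, pandas 2.3.3 and matplotlib 3.10.9 were used. A gene was counted with at least 20 expected UMIs in the 263 cells. The genes used by the rule were left out. Genes named were those of lists covering ligands, receptors, programs and cell types, the 15 highest and lowest ratios against *Areg*-negative cells and the 8 highest and lowest against *Il1rl1*-positive *Areg*-high cells, without TCR, ribosomal and mitochondrial genes. Genes withheld for evaluations are not reported here. Intervals were exact Poisson for levels, conditional binomial for ratios and Clopper-Pearson for shares, at 95%. Thinned shares are exact expectations at 1500 UMIs without replacement, with shallower cells left out. A clone was expanded with at least 2 Treg cells. A cell was tagged with at least 1 tag UMI, all from 1 tumor type, a rule chosen because few cells had more. Doublets were not called, and cells with 2 β chains or foreign markers were left out as alternatives. Other alternatives changed the quality, *Areg*, *Foxp3* and interferon limits, the scaling, the depth weighting, the count minimum, and the clone and tag rules. The ratio interval was checked on simulated Poisson counts only. This is the model the interval assumes, so the check does not cover spread between cells.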

Additional observations from a re-analysis of the deposited data

Results flagged for a closer look

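The upper limit of 2500 detected genes left out 22 barcodes that met every other condition of the rule. They were flagged because they are data outside the comparisons with a signal above 0, and held 1031 CPM of *Areg* at a median of 11057 UMIs per barcode. UMIs on human genes, which no mouse cell should give, numbered 111 in the 263 cells (0.0125% of their UMIs) and were flagged for the same reason, beside 0.0132% in the *Areg*-negative cells.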

How the results depend on the processing

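The values rest on 1 library, and the labels do not say whether a tag was 1 mouse, so no spread between mice is given, and depth limits every statement on an absent transcript. No paired analysis was possible because the results come from no test and from 1 pool. Under 17 other settings and 2 more chosen after seeing the data (without cells with at least 2 macrophage marker UMIs, and without the cell of each group with the most UMIs of a gene), 2926 of 3130 ratios of 122 genes stayed within the counting interval of the reported value, 178 left it and 26 changed direction, counted where the reported ratio was past 1.5-fold. Ratios short of 1.5-fold crossed 1 in 148 more values, 27 of them outside the interval, among them, without foreign markers, *Il10* (0.899) and *Nkg7* (1.21) against *Areg*-negative cells. The number of cells (263) became 174 with at least 2 *Foxp3* UMIs, and also 174 without cells holding foreign markers. Against *Areg*-negative cells, 128 genes were lower with 2 *Foxp3* UMIs, 23 were higher and 35 lower at a minimum of 50 expected UMIs, where fewer genes are counted, and 61 were higher without the top cells. Against *Il1rl1*-positive *Areg*-high cells, the minimum of 50 gave 109 higher and 88 lower. The share in expanded clones became 15.5% by the β chain and 0% with at least 3 Treg cells. The 26 values that turned were, against *Areg*-negative cells, *S1pr1* (1.09) and *Tyrobp* (1.16) with 2 *Foxp3* UMIs, *Cxcl10* (1.34, no interferon limit, on which an interferon-induced gene depends by construction), *Ccl8* (1.09), *Cd68* (1.21), *Cxcl2* (1.86), *Gzma* (0.895), *Hmox1* (1.5), *Lgals3* (1.17) and *Spp1* (1.45) without foreign markers, *Cxcl2* (1.20), *Fcer1g* (1.72), *Hmox1* (1.11), *Lgals3* (1.18), *Spp1* (1.15) and *Tyrobp* (2.61) without macrophage markers, and *Gzma* by the mean of cells (0.859) and without the top cells (0.790). Against *Il1rl1*-positive *Areg*-high cells they were *Lyz2* with 5 *Areg* UMIs (0.155), 2 *Foxp3* UMIs (0.0925), without foreign markers (0.503), macrophage markers (0.0769) or the top cells (0.133), *Fcer1g* with 2 *Areg* UMIs (0.984) and without foreign markers (0.754), and *Tyrobp* without foreign markers (0). Leaving out cells by a marker acts on that marker by construction. Where not stated, the cause was not tested. The B16-IL33 share stayed between 26.1% and 40%, and the thinned *Il1rl1* share of Treg cells with high *Areg* between 19.997% and 24.8%.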

Other observations

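Treg cells with 1 or 2 *Areg* UMIs and no *Il1rl1* (272 cells) held no single place between the 263 cells and the *Areg*-negative cells. *Il2ra* was found in 53.7% (32.8% thinned) of them, *Klrg1* in 39.0% (26.3% thinned), *Lag3* in 42.3% (28.8% thinned), *Nkg7* in 44.9% (31.6% thinned), *Dgat2* in 4.41% (2.51% thinned) and *Penk* in 14.0% (10.1% thinned), the last beside 12.2% (9.24% thinned) of the 263 cells and 7.61% (6.14% thinned) of the *Areg*-negative cells. *Ccl4* was at 905 CPM in them, 705 in the 263 cells and 499.7 in the *Areg*-negative cells. *Areg* UMIs were concentrated within the 263 cells: the 10% of cells with the most *Areg* held 34.6% of them. Split by *Klrg1*, 133 cells with a UMI had 1224 CPM of *Ccl5*, 1682 of *Gzmb* and 224 of *Cxcr6*, and 130 cells without had 672, 1108 and 110.3 CPM.

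Against the *Il1rl1*-positive *Areg*-high cells, the IL-6 receptor chain *Il6ra* had a ratio of 0.485 (0.273 to 0.865), the early response gene *Nr4a3* 0.419 (0.237 to 0.737) and the metallothionein *Mt1* 0.649 (0.540 to 0.780), while *Anxa2*, a membrane-binding protein, was 1.58-fold (1.30 to 1.93) and the AP-1 subunit *Jun* 1.68-fold (1.35 to 2.11) higher. *Mt1*, *Jun* and *Nr4a3* were short of 1.5-fold in 7, 3 and 1 of 15 alternatives.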
